A study of Rattus norvegicus with 40 samples.

Results

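Transcripts of 35 genes of the antioxidant and glutathione defence were followed in the hippocampus of young rats that had been exposed to lead during development. The genes were taken as a list, and each was read from the probe set whose only symbol in the platform's probe table was that gene, with the probe set of highest mean where there were several. Of the 35 listed genes, 34 had such a probe set, out of 14506 genes measured in this way. The exception was Pgd, phosphogluconate dehydrogenase, for which no value is given. Prdx1 and Gsta4 had more than 1 probe set.

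Each of 40 Affymetrix arrays held 1 hippocampal RNA sample (100 ng) from a rat killed at postnatal day 55, in 10 groups of 4 arrays, and the labels name no strain. Male and female controls ate chow without lead. The 8 exposed groups were males and females given chow with 250 or 750 ppm lead acetate, either perinatally, through dams fed it from 10 days before breeding until the pups were weaned, or postnatally, from birth until postnatal day 45. All animals ate control chow after the exposure, so every value was taken after lead chow had been withdrawn. Exposure ended at weaning in the perinatal groups and at postnatal day 45 in the postnatal groups. Window and time since withdrawal therefore cannot be told apart, and both windows included the time from birth to weaning. Values are log2 signals, so a difference of 1 is a doubling. Levels of different genes were not compared, since each probe set has its own response. The labels are silent on litters, so p-values measure only the spread between these samples, which may be technical. In whole tissue, fewer cells of a type and less RNA per cell cannot be told apart.

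The genes on the list act in linked systems. The transcription factor NRF2, encoded by Nfe2l2, is held back by KEAP1 and, when released by oxidants or electrophiles, pairs with small MAF proteins on antioxidant response elements of many of the other genes listed. Glutathione, a thiol tripeptide made from cysteine, glutamate and glycine, serves peroxidases and transferases, while thioredoxin serves the peroxiredoxins, and both are returned to their reduced form with electrons from NADPH. In brain, astrocytes are known as the main site of this response and as a source of glutathione precursors for neurons.

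Several properties of the arrays touch these comparisons. Means over 8 hippocampal neuron markers (10.54 to 10.67) and 9 astrocyte markers (10.73 to 10.94) varied little between arrays. One neuronal marker, Spink8, was dim (mean 5.21, with 24.3% of probe sets dimmer). Among the controls, 3 of 8 arrays had the X-linked transcript Eif2s3 in the range of the other sex label (exposed females 11.62 to 11.77, exposed males 11.15 to 11.42), so comparisons are with the arrays labelled male or female control. These were male control replicate 4 and female control replicates 1 and 3. Another 3 arrays, all from males exposed perinatally, had flattened signal, with bright probe sets dimmer and dim ones brighter than elsewhere. Title numbers fell into 3 ranges, and the lowest held the controls together with 1 exposed group, perinatal females at 750 ppm. The highest held 1 group alone, perinatal males at 750 ppm. For the other 7 exposed groups, title range and exposure cannot be told apart in comparisons with controls. For perinatal males and perinatal females at 750 ppm, title range and exposure also cannot be told apart in comparisons with other exposed groups. Markers of the choroid plexus, the ventricular epithelium that lies against the hippocampus, split the arrays into 15 with a list mean of 6.19 to 7.33 and 25 with a list mean of 8.44 to 11.02 (7 of 8 listed markers measured).

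The probe sets of the list varied little between arrays. Of the 34 genes, 32 read brighter than the median probe set, which does not rank their abundance. The dimmer ones were Prdx4, a peroxiredoxin of the endoplasmic reticulum (mean 6.38), and Srxn1, sulfiredoxin, which restores overoxidised peroxiredoxins (mean 6.90). The SD within groups was below that of the median probe set (0.129) in 26 of 34, with a median of 0.0929. The steadiest were Txn1, cytosolic thioredoxin (SD within groups 0.0468), and Tkt, transketolase of the pentose phosphate pathway (0.0514). Txn1 was brighter than 99.5% of probe sets, where an array responds least to change. The widest were Gsta4, a transferase that clears lipid aldehydes (0.243), Sod3, extracellular superoxide dismutase (0.235), Mgst1, a membrane-bound transferase (0.194), and Gpx1, the cytosolic glutathione peroxidase (0.165). The group means of a gene spanned a median of 0.195, against 0.196 over all genes, and spanned less than 0.3 in 27 of 34.

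Over all exposures, no gene of the defence passed the test against controls. With the mean of the 8 exposed groups set against the mean of the 2 control groups in limma, 0 of 34 genes passed an adjusted p of 0.05, against 0.38% of all probe sets, and 6 had an unadjusted p under 0.05 (17.6%, against 7.66% of all probe sets). The median difference was -0.01, with 16 genes higher and 18 lower, against a median of 0.00 over all genes. The 95% interval lay within 0.3 log2 of no difference for each of the 34 genes and within 0.2 for 28. The smallest p belonged to Gsr, Gstp1 and Srxn1.

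**Figure D1:**
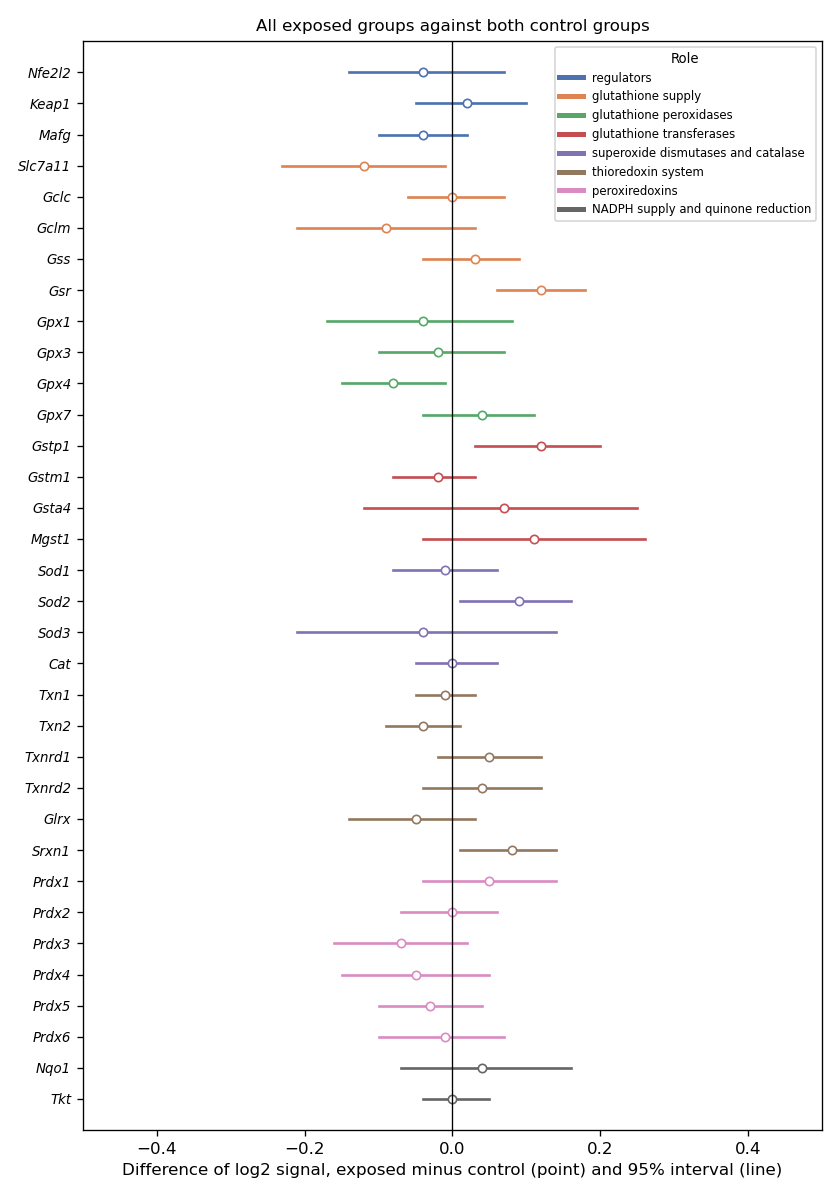
Difference in log2 signal between the mean of the 8 exposed groups and the mean of the 2 control groups for the 34 measured genes, ordered and coloured by role; points are estimates of the limma model, lines 95% intervals and open points an adjusted p of 0.05 or more. All points are open, and they run from -0.12 for Slc7a11 to 0.12 for Gsr.

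Glutathione reductase, encoded by Gsr, regenerates reduced glutathione from its disulphide and came nearest to the threshold. Control arrays read 8.83, 9.02, 9.06 and 9.01 in males and 8.93, 9.02, 8.98 and 9.13 in females. After perinatal lead, males read 9.0, 9.18, 9.03 and 9.05 at 250 ppm and 9.04, 9.10, 9.03 and 9.05 at 750 ppm, and females 9.18, 9.09, 9.13 and 9.07 at 250 ppm and 9.15, 9.17, 9.23 and 9.13 at 750 ppm. After postnatal lead, males read 9.04, 9.16, 9.17 and 9.02 at 250 ppm and 9.11, 9.18, 9.16 and 9.11 at 750 ppm, and females 9.18, 9.11, 9.32 and 9.10 at 250 ppm and 9.14, 9.05, 9.08 and 9.20 at 750 ppm. The exposed arrays overlapped the controls, but 31 of 32 lay above the median control array, 13 above the highest, and 0 below the lowest. The difference was 0.12 (SE 0.03, 95% interval 0.06 to 0.18, a fold of 1.09), positive in 8 of 8 exposures, which share control arrays within a sex, and limma's adjusted p was 0.071. Without the 3 controls that went against their sex label the difference was 0.09 (adjusted p = 0.501). Leaving out the dimmest 40% of probe sets put it past the threshold (0.12, adjusted p = 0.0461), as did leaving out female control replicate 4 (0.14, adjusted p = 0.0465). In the females exposed perinatally to 750 ppm, which share the controls' title range, the 4 arrays differed from the female controls by 0.16 (adjusted p = 0.511). The myelin markers were also higher over the exposures (8 of 8 measured higher, 5 called, mean difference 0.20; array means of 11.38 to 11.50 in controls and 11.42 to 11.84 in exposed rats), and their part in the Gsr values was not tested.

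The other genes of glutathione supply lay on both sides of the controls. Slc7a11, the cystine importer that feeds glutathione synthesis, was below controls in 8 of 8 exposures, by 0.02 to 0.24, and the mean difference of -0.12 (95% interval -0.23 to -0.01) had an adjusted p of 0.605. Its control arrays ran from 10.96 over a median of 11.25 to 11.57 and its 16 perinatal arrays from 10.92 over 11.16 to 11.43. The 16 postnatal arrays ran from 10.92 over 11.14 to 11.41, within the controls' range at the top and just below it at the bottom. Gclm and Gclc, the modifier and catalytic subunits of the rate-limiting ligase, differed by -0.09 (95% interval -0.21 to 0.03) and 0.00 (-0.06 to 0.07), and Gss, glutathione synthetase, by 0.03 (-0.04 to 0.09). The regulators had intervals that all held 0: Nfe2l2 -0.04 (-0.14 to 0.07), its inhibitor Keap1 0.02 (-0.05 to 0.10), and its small MAF partner Mafg -0.04 (-0.10 to 0.02).

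Gstp1, the pi-class transferase that joins glutathione to electrophiles, differed by 0.12 over all exposures (SE 0.04, adjusted p = 0.399) and was highest relative to controls in males exposed postnatally to 750 ppm. Male controls read 10.01, 9.64, 9.77 and 9.95, and the exposed males of that group 10.12, 10.08, 10.17 and 10.18, with no overlap. The difference there was 0.30 (SE 0.08, 95% interval 0.14 to 0.45, adjusted p = 0.217). The remaining males read 10.08, 10.01, 9.83 and 9.82 (perinatal, 250 ppm), 9.96, 9.92, 10.07 and 9.92 (perinatal, 750 ppm) and 10.01, 9.93, 10.18 and 9.95 (postnatal, 250 ppm), all overlapping the controls. Female controls read 10.16, 9.92, 10.05 and 9.94. The exposed females read 10.19, 10.02, 10.13 and 10.24 (perinatal, 250 ppm), 10.08, 10.10, 9.93 and 9.88 (perinatal, 750 ppm), 10.15, 10.06, 10.07 and 9.97 (postnatal, 250 ppm) and 10.13, 10.14, 10.21 and 9.88 (postnatal, 750 ppm). Each exposed female group overlapped its controls, and the difference between sexes in the response to postnatal 750 ppm was -0.22 (95% interval -0.44 to 0.00, adjusted p = 0.996). Female controls exceeded male controls in Gstp1 by 0.17 (adjusted p = 0.994). The other transferases had wider or near-zero differences over all exposures: Mgst1 0.11 (95% interval -0.04 to 0.26), Gsta4 0.07 (-0.12 to 0.25) and Gstm1, an abundant mu-class enzyme, -0.02 (-0.08 to 0.03).

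Gpx4, the peroxidase that reduces lipid hydroperoxides in membranes, had the smallest p of the list in 2 of the 4 male exposures and lay below controls there. Male controls read 8.99, 9.08, 9.07 and 9.21, against 8.81, 8.97, 8.87 and 8.80 after perinatal 750 ppm and 8.86, 9.08, 8.82 and 8.82 after postnatal 250 ppm. The former group did not overlap the controls (difference -0.22, SE 0.06, adjusted p = 0.241) and the latter did through 1 array (-0.19, SE 0.06, adjusted p = 0.558). The other male groups read 8.85, 9.20, 8.98 and 8.95 (perinatal, 250 ppm) and 9.03, 9.05, 8.94 and 9.06 (postnatal, 750 ppm), within or near the controls' range. Female controls read 8.99, 9.02, 8.95 and 8.93, and all 4 females exposed perinatally to 250 ppm lay below them at 8.88, 8.81, 8.77 and 8.91 (-0.13, adjusted p = 0.853). Females read 9.11, 9.03, 9.04 and 8.92 after perinatal 750 ppm, 8.99, 8.97, 9.12 and 9.03 after postnatal 250 ppm and 8.91, 8.93, 8.97 and 8.92 after postnatal 750 ppm, so the direction was not shared by all groups. The difference between sexes in the response to perinatal 750 ppm was 0.28 (SE 0.09, 95% interval 0.10 to 0.45, adjusted p = 0.476). Over all exposures Gpx4 differed by -0.08 (SE 0.03, adjusted p = 0.524).

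Among the remaining glutathione peroxidases, Gpx7, which acts in the endoplasmic reticulum, had the smallest p of the list in females exposed postnatally to 750 ppm. These read 8.02, 7.99, 7.88 and 7.90 against 7.79, 7.85, 7.80 and 7.82 in female controls, without overlap (0.14, SE 0.07, adjusted p of 1). The other exposed females read 7.85, 7.97, 7.85 and 7.85 (perinatal, 250 ppm), 7.93, 7.77, 7.97 and 7.74 (perinatal, 750 ppm) and 7.74, 7.87, 7.91 and 8.04 (postnatal, 250 ppm). Male controls read 7.96, 7.71, 8.06 and 7.76, a spread wider than that of any exposed male group. Exposed males read 7.90, 7.77, 7.90 and 7.87 (perinatal, 250 ppm), 7.84, 7.83, 7.91 and 7.84 (perinatal, 750 ppm), 7.87, 7.72, 7.78 and 7.97 (postnatal, 250 ppm) and 7.92, 7.95, 7.92 and 7.90 (postnatal, 750 ppm), all inside that spread. Over all exposures Gpx7 differed by 0.04 (95% interval -0.04 to 0.11), Gpx1 by -0.04 (-0.17 to 0.08) and Gpx3, the secreted peroxidase, by -0.02 (-0.10 to 0.07).

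Sod2, the mitochondrial manganese superoxide dismutase, had the smallest p of the list in females at 250 ppm, in both windows. Female controls read 10.77, 10.44, 10.69 and 10.58, against 10.69, 10.81, 10.84 and 10.76 after perinatal and 10.81, 10.81, 10.84 and 10.81 after postnatal 250 ppm. The postnatal arrays all lay above the controls and within 0.03 of one another as printed (difference 0.20, SE 0.06, adjusted p = 0.918), while the perinatal arrays overlapped them (0.16, SE 0.06, adjusted p = 0.746). Females read 10.81, 10.76, 10.74 and 10.78 after perinatal and 10.82, 10.77, 10.61 and 10.67 after postnatal 750 ppm, overlapping the highest control. Over the alternative settings run, the difference ran from 0.14 to 0.31 after postnatal and from 0.10 to 0.27 after perinatal 250 ppm, without a call. Male controls read 10.67, 10.67, 10.65 and 10.79. The highest control under each sex label was female replicate 1 (10.77) and male replicate 4 (10.79). Both arrays had Eif2s3 in the range of the other sex label. Exposed males read 10.77, 10.77, 10.63 and 10.57 (perinatal, 250 ppm), 10.77, 10.44, 10.73 and 10.82 (perinatal, 750 ppm), 10.80, 10.77, 10.70 and 10.72 (postnatal, 250 ppm) and 10.73, 10.68, 10.78 and 10.83 (postnatal, 750 ppm), on both sides of the controls. Over all exposures Sod2 differed by 0.09 (SE 0.04, 95% interval 0.01 to 0.16, adjusted p = 0.496). Sod1, the cytosolic copper and zinc enzyme, differed by -0.01 (95% interval -0.08 to 0.06) and Cat, the peroxisomal catalase that breaks down hydrogen peroxide, by 0.00 (-0.05 to 0.06). The interval of Sod3 was wider (-0.04, -0.21 to 0.14).

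Peroxiredoxins, which reduce peroxides with electrons from thioredoxin (Prdx6 with electrons from glutathione), and the thioredoxin genes also had intervals that held 0, apart from Srxn1. Prdx1 differed by 0.05 (95% interval -0.04 to 0.14), and its other probe set gave the same difference. The cytosolic Prdx2 differed by 0.00 (-0.07 to 0.06), the mitochondrial Prdx3 by -0.07 (-0.16 to 0.02), Prdx4 by -0.05 (-0.15 to 0.05), Prdx5 by -0.03 (-0.10 to 0.04) and Prdx6 by -0.01 (-0.10 to 0.07). Txn1 differed by -0.01 (-0.05 to 0.03), the mitochondrial Txn2 by -0.04 (-0.09 to 0.01), and their reductases Txnrd1 and Txnrd2 by 0.05 (-0.02 to 0.12) and 0.04 (-0.04 to 0.12). Glrx, glutaredoxin, which removes glutathione from proteins, differed by -0.05 (-0.14 to 0.03). Nqo1, the quinone reductase widely used as a marker of NRF2 activity, differed by 0.04 (-0.07 to 0.16) and Tkt by 0.00 (-0.04 to 0.05).

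Set against controls of the same sex label 1 exposure at a time, limma called 0 of 34 genes in each of the 8 exposures. In males, 0.089% and 0.0582% of all probe sets were called after perinatal 250 and 750 ppm, and 0.0342% and 0.0445% after postnatal 250 and 750 ppm. In females the shares were 0.0171% and 0.157% after perinatal and 0.0171% and 0.0137% after postnatal exposure. At an unadjusted p under 0.05 the male counts were 2, 4, 5 and 4 of 34, where 7.11%, 7.77%, 6.03% and 9.51% of all probe sets passed. The female counts were 4, 3, 4 and 1, where 5.6%, 5.81%, 3.64% and 3.58% passed. Median differences lay between -0.03 and 0.04, and the median 95% interval extended 0.13 to either side. Larger differences than that also failed adjustment, such as 0.30 for Gstp1 in males after postnatal 750 ppm (adjusted p = 0.217).

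The arrays of an exposed group lay wholly to one side of their 4 controls for few genes. In males these were Srxn1 after perinatal 250 ppm (1 of 34 genes, against 2.66% of all probe sets), Srxn1, Gpx4 and Cat after perinatal 750 ppm (3 of 34, 3.59%), Txnrd1 after postnatal 250 ppm (1 of 34, 3.09%), and Gsr, Txnrd1, Gstp1 and Mafg after postnatal 750 ppm (4 of 34, 5.13%). In females they were Gpx7, Srxn1, Gpx4 and Txn2 after perinatal 250 ppm (4 of 34, 3.36%), Gstm1 after perinatal 750 ppm (1 of 34, 4%), Sod2 after postnatal 250 ppm (1 of 34, 2.29%) and Gpx7 after postnatal 750 ppm (1 of 34, 2.44%). Srxn1 appeared in 3 of these exposures, each time higher and each time perinatal.

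**Figure D2:**
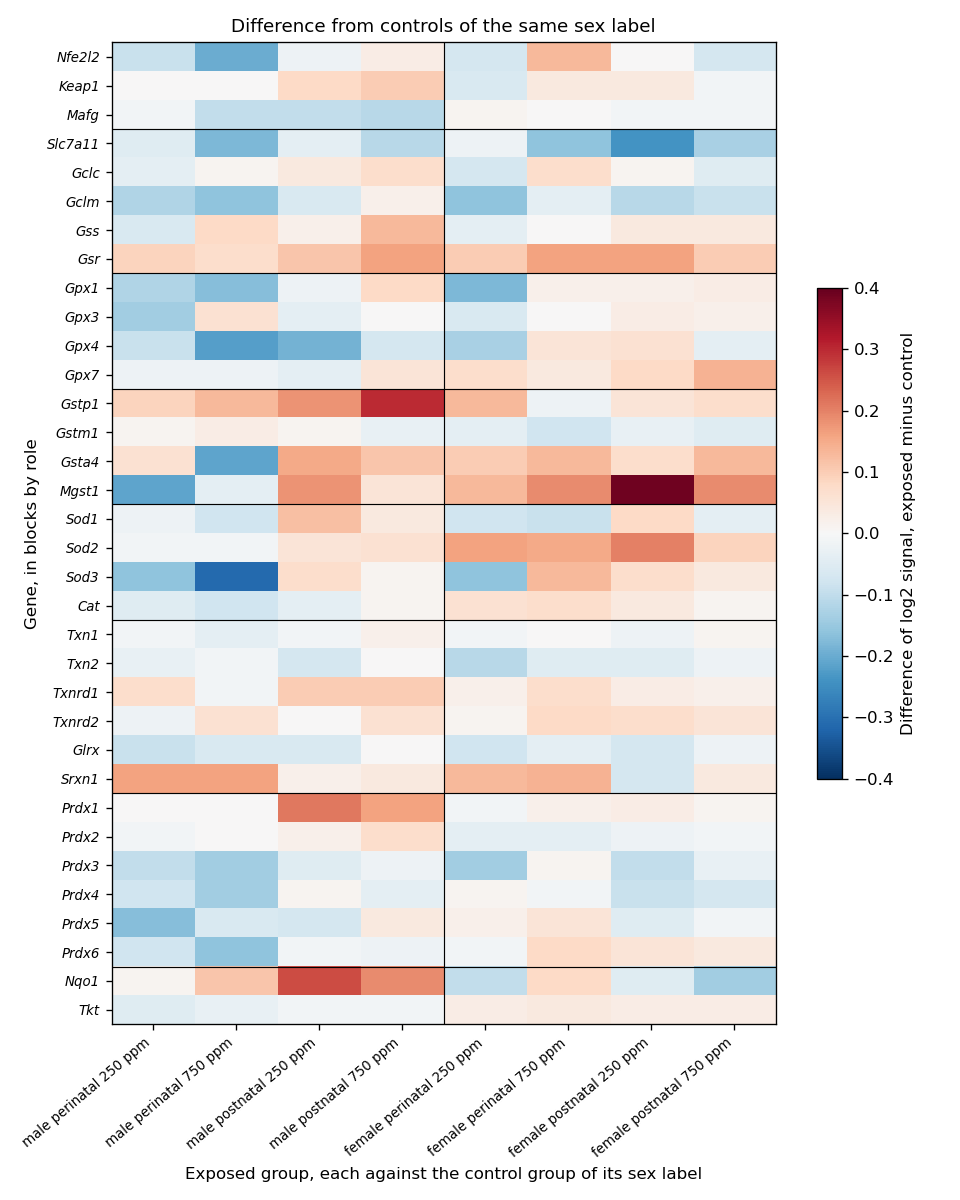
Difference in log2 signal from controls of the same sex label for the 34 measured genes (rows, in blocks by role) in the 8 exposed groups (columns, males left of the line); exposures within a sex share their 4 controls. Colours run from -0.4 to 0.4, Gsr is above controls in all 8 columns and Srxn1 is 0.13 to 0.16 above them in the 4 perinatal columns.

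The window of exposure was the comparison in which a gene of the list was called. Srxn1 was lower after postnatal than after perinatal lead and was the only one of 34 genes called, against 0.065% of all probe sets. Male controls read 6.79, 6.76, 6.84 and 6.91 and female controls 6.88, 6.87, 6.82 and 6.85. After perinatal lead, males read 7.01, 6.99, 6.97 and 6.96 at 250 ppm and 7.01, 6.95, 7.02 and 6.97 at 750 ppm, and females 7.03, 7.09, 6.89 and 6.91 at 250 ppm and 6.86, 7.01, 7.07 and 7.03 at 750 ppm. After postnatal lead, males read 6.78, 6.84, 6.90 and 6.85 at 250 ppm and 6.84, 6.90, 6.81 and 6.89 at 750 ppm, and females 6.85, 6.65, 6.76 and 6.85 at 250 ppm and 6.96, 6.87, 6.94 and 6.83 at 750 ppm. Of 16 perinatal arrays, 14 lay above the highest of the 8 control arrays, as did 2 of 16 postnatal arrays. The windows overlapped, with 11 perinatal arrays above the highest postnatal array.

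Over the 32 exposed arrays the Srxn1 difference, postnatal minus perinatal, was -0.14 (SE 0.03, 95% interval -0.20 to -0.09, a fold of 0.907, limma's adjusted p = 0.024). Within dose and sex it was -0.14 and -0.13 in males at 250 and 750 ppm and -0.20 and -0.10 in females. Against controls, Srxn1 differed by 0.16 and 0.16 in perinatal males and 0.13 and 0.14 in perinatal females at the 2 doses, and by 0.02, 0.04, -0.07 and 0.04 in the corresponding postnatal groups. None of these 8 differences passed adjustment (smallest adjusted p = 0.426). The difference between doses was 0.04 (95% interval -0.02 to 0.10) and that between sexes 0.00 (-0.06 to 0.05).

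The Srxn1 call rested on a small difference in a dim probe set, and several settings ended it. It was lost, with the direction kept, after a further quantile normalization (-0.12, adjusted p = 0.0638), without the 3 flattened arrays (-0.14, adjusted p = 0.0861) and within the groups of the middle title range (-0.17, adjusted p = 0.101). It was also lost without any of 6 single arrays, namely male postnatal 750 ppm replicate 3, female perinatal 250 ppm replicate 2, female perinatal 750 ppm replicates 3 and 4, and female postnatal 750 ppm replicates 2 and 4. Over all 32 such omissions the difference ran from -0.15 to -0.13 and the adjusted p from 0.014 to 0.0585.

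Choroid plexus markers moved with the window as well. All 7 were higher after postnatal lead, with a mean difference of 1.45. Their list mean ran from 6.35 over a median of 7.20 to 10.45 on perinatal arrays, from 6.35 over 10.01 to 11.02 on postnatal arrays and from 6.19 over 10.03 to 10.85 on control arrays. With that level as a covariate the Srxn1 difference was -0.12 (adjusted p = 0.239). Among the 15 arrays of low marker level, Srxn1 ran from 6.91 to 7.09 on 9 perinatal arrays, from 6.81 to 6.96 on 3 postnatal arrays and from 6.76 to 6.91 on 3 control arrays. Among the 25 arrays of high marker level it ran from 6.86 to 7.02 on 7 perinatal arrays, from 6.65 to 6.94 on 13 postnatal arrays and from 6.79 to 6.87 on 5 control arrays. The perinatal arrays had the highest median in both sets (7.01 against 6.85 and 6.88, and 6.97 against 6.85 and 6.84). With only 3 postnatal and 3 control arrays of low level, these are descriptions, and no test was made within the sets.

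**Figure D3:**
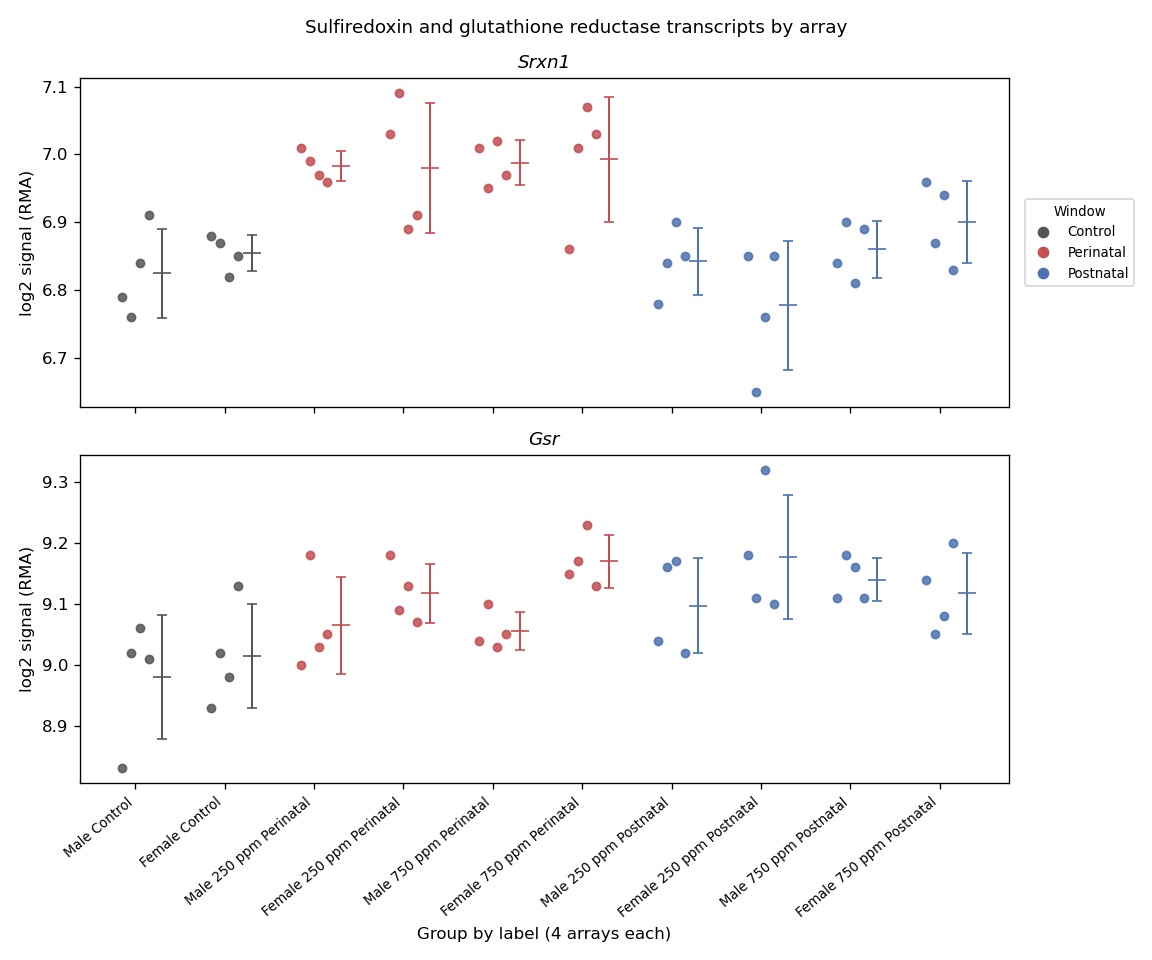
Log2 signal of Srxn1 (top) and Gsr (bottom) in the 4 arrays of each of the 10 groups, with the group mean and SD beside them (horizontal mark and bar); grey marks controls, red perinatal and blue postnatal exposure. For Srxn1, 14 of 16 perinatal arrays lie above the highest control array, and for Gsr 31 of 32 exposed arrays lie above the median control array.

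The antioxidant response element, through which NRF2 acts, was searched as the core letters TGACNNNGC in the start-site windows of the list. These are the 300 bases from 250 before to 50 after an annotated gene start in RefSeq (assembly GRCr8), and 32 of the 35 genes had at least 1 such window. Counting both strands, 8 of these 32 genes (25.0%) held a match, against 13.1% of all genes of the table and 12.1% of all windows. The windows of Srxn1, the gene called, and of Gstp1 and Prdx1, which hold the same 9 letters, are shown 5′ to 3′ on the gene's strand, with the match in capitals (on the opposite strand in Prdx1) and no capitals where there is none.
Srxn1, chr3:161064562-161064861, plus strand: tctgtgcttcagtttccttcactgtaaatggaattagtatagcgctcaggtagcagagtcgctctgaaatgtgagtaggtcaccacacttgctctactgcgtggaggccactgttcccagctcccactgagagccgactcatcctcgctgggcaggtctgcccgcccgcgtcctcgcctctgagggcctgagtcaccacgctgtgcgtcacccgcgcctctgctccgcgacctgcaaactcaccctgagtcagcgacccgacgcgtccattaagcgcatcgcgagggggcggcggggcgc
Gstp1, chr1:210769656-210769955, minus strand: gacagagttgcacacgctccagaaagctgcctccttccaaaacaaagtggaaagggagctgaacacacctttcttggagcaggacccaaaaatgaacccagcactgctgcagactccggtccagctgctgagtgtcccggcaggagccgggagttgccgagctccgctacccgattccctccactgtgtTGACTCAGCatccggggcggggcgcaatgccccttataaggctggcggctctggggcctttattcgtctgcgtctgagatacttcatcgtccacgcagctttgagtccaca
Prdx1, chr5:135383656-135383955, plus strand: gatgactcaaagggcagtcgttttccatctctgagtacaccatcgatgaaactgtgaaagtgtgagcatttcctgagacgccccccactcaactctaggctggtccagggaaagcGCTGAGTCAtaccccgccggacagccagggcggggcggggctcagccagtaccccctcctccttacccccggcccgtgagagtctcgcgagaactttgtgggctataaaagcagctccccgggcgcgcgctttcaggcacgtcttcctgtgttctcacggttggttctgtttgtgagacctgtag
The match in Gstp1 began 61 bases before the start and that in Prdx1 covered positions -135 to -127. Both read TGACTCAGC, which also contains the AP-1 type letters TGACTCA and stood in 139 of 33469 windows (0.415%). The 7 letters TGACTCA alone, searched on both strands after the windows had been seen, stood in 4 of the 32 genes (12.5%) and in 5.04% of all genes of the table. They stood 2 times in the Srxn1 window, at positions -62 to -56 and -5 to 2 on the opposite strand, where they are not in capitals. Read on the gene's own strand, the run at -5 to 2 is part of TGAGTCAGC. That differs from the searched core in 1 letter and was not counted as a match. They also stood 2 times in Prdx1, once within the match and once at -248 to -242, and 1 time each in Gstp1 and Glrx. The other matches of the longer core were TGACCCTGC in Sod2, TGACTCTGC in Prdx5, TGACTAAGC in Gclm, TGACGCCGC in Nfe2l2, TGACAAAGC in Txnrd1 and TGACCAAGC in Prdx4. A match is a run of letters and no evidence of a bound site, and these elements can lie outside such windows. Variants of the core were not searched, so a window without capitals may still hold one.

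Most other genes of the list went the other way from Srxn1 in the comparison of windows and were higher after postnatal lead, but none was called. Of 34 genes, 30 were higher after postnatal lead (88.2%, against 45.7% of all genes), with a median of 0.04 against -0.01. This was 24 of 34 without the 3 flattened perinatal arrays, on which bright probe sets read dimmer (43.6% of all probe sets). It was 26 with the choroid plexus level as a covariate (43.5%) and 30 after quantile normalization (47.4%). Within the middle title range, where only the 250 ppm groups could be compared, it was 27 (43.4%). In males at 250 and 750 ppm, 28 and 30 of 34 were higher (82.4% and 88.2%, against 47.9% and 46.6% of all genes). In females the counts were 25 and 14 (73.5% and 41.2%, against 53.7% and 46.2%), so females at 750 ppm did not share the direction. Markers of other cells also moved with the window: 7 of 7 microglial, 7 of 7 endothelial and 5 of 5 red blood cell markers were higher after postnatal lead (mean differences of 0.07, 0.06 and 0.07), and 0 of 8 myelin markers were (-0.04). None of these was called, and their part in the counts was not tested. At an unadjusted p under 0.05, 6 of 34 genes passed, against 12.6% of all probe sets. Besides Srxn1 these were Sod1, Mgst1, Gpx1, Prdx1 and Sod3.

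Sod1 ran from 10.75 over a median of 10.85 to 11.03 on the 16 perinatal arrays and from 10.79 over 10.98 to 11.20 on the 16 postnatal arrays, so most of the ranges overlapped. Its difference was 0.12 (SE 0.03, 95% interval 0.05 to 0.18, adjusted p = 0.146). Mgst1 ran from 7.76 over 8.30 to 8.60 on perinatal and from 7.98 over 8.47 to 8.71 on postnatal arrays (0.19, adjusted p = 0.261). Both ranges of Mgst1 held all 8 control arrays, which ran from 8.04 over 8.29 to 8.38. Prdx1 differed by 0.10 (adjusted p = 0.312), Gpx1 by 0.14 (adjusted p = 0.308) and Sod3 by 0.17 (adjusted p = 0.359).

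**Figure D4:**
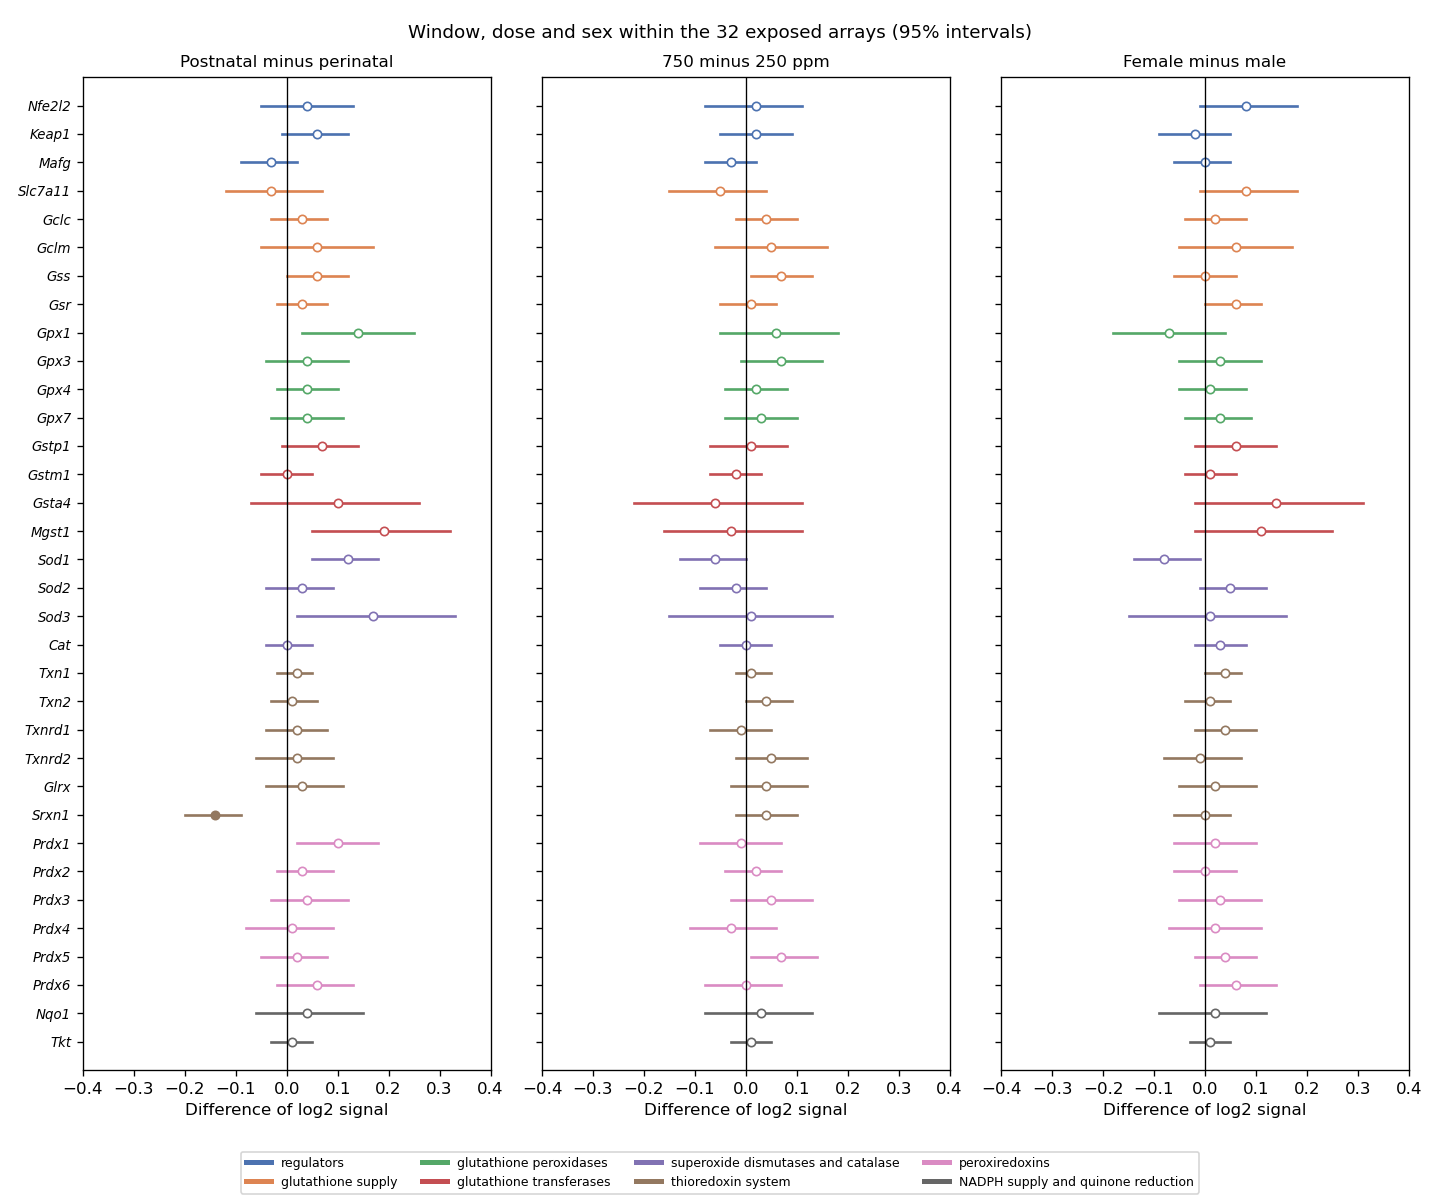
Differences in log2 signal within the 32 exposed arrays between windows (left), doses (middle) and sexes (right) for the 34 measured genes, coloured by role; points are limma estimates, lines 95% intervals, and a filled point has an adjusted p under 0.05. Srxn1 between windows (-0.14) is the only filled point.

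Dose and sex gave no called gene of the list. Between 750 and 250 ppm, limma called 0 of 34 genes (0.0856% of all probe sets) and 2 had an unadjusted p under 0.05 (7.31% of all probe sets), Gss and Prdx5, each 0.07 higher at 750 ppm. All 34 intervals for dose lay within 0.3 log2 of no difference and 33 within 0.2. Between exposed females and males, limma called 0 of 34 genes (0.0924% of all probe sets) and 3 had an unadjusted p under 0.05 (13.4% of all probe sets). These were Sod1 (-0.08), Txn1 (0.04) and Gsr (0.06). Of 34 genes, 27 were higher in females (79.4%, against 50% of all genes). This was 20 without the 3 flattened male arrays (50.6% of all probe sets) and 21 after quantile normalization (46.8%). It was 19 within the middle title range (50.9%) and 28 with the choroid plexus covariate (46.8%).

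The same held for differences between effects. In limma, 0 of 34 genes were called for the interaction of dose with window (0.0171% of all probe sets), dose with sex (0%) and window with sex (0.0308%), and 2, 0 and 4 genes had an unadjusted p under 0.05, against 4.09%, 3.49% and 14.3% of all probe sets. The 4 were Nqo1 (-0.25), Nfe2l2 (-0.21), Prdx1 (-0.17) and Prdx5 (-0.16), each with a window difference less positive in females than in males. For Nqo1 the male exposures from postnatal 250 and 750 ppm lay 0.26 and 0.19 above male controls and the female ones -0.05 and -0.14 from female controls. The difference between the sexes in that response was -0.30 and -0.33, with adjusted p-values of 1 and 0.996. For Nqo1 itself, female controls exceeded male controls by 0.21 (limma's adjusted p = 0.994), and these controls enter that difference. In the 4 interactions of sex with lead, limma called 0 of 34 genes, with 0%, 0.0205%, 0% and 0% of all probe sets called, and 1, 4, 2 and 2 genes had an unadjusted p under 0.05 (3.35%, 7.41%, 2.3% and 4.25% of all probe sets). A test of any difference among the 10 groups called 0 of 34 genes (0.654% of all probe sets), with 6 at an unadjusted p under 0.05 (12.7% of all probe sets) and the smallest adjusted p in Srxn1 (0.0903).

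Gpx1 and Sod3, singled out after their values were seen, followed the choroid plexus markers from array to array. On the 15 arrays of low marker level, Gpx1 ran from 9.24 over a median of 9.37 to 9.49, and on the 25 arrays of high marker level from 9.34 over 9.61 to 9.84. Sod3 ran from 9.88 over 10.15 to 10.39 and from 10.10 over 10.46 to 10.89 on the same sets. Both sets overlapped for both genes. Within the 25 arrays of high marker level, Pearson's r with the marker mean was 0.82 for Gpx1 (Spearman's rho 0.86, and r = 0.83 without the 2 arrays farthest from the median) and 0.80 for Sod3 (0.86 and 0.77). Within the 15 arrays of low level, r was 0.46 for Gpx1 (rho 0.39, and 0.40 without the 2 farthest) and 0.39 for Sod3 (0.33 and 0.25). These are descriptions over arrays that share groups and normalisation, and no test was made. With the marker level as a covariate the difference between windows was 0.02 for Gpx1 and 0.00 for Sod3, against 0.14 and 0.17 without it. It was also lower with the covariate for Mgst1 (0.09, against 0.19), Prdx1 (0.05, against 0.10) and Gsta4 (-0.02, against 0.10). For Sod1 it was 0.10, against 0.12, and for Gclc 0.05, against 0.03.

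**Figure D5:**
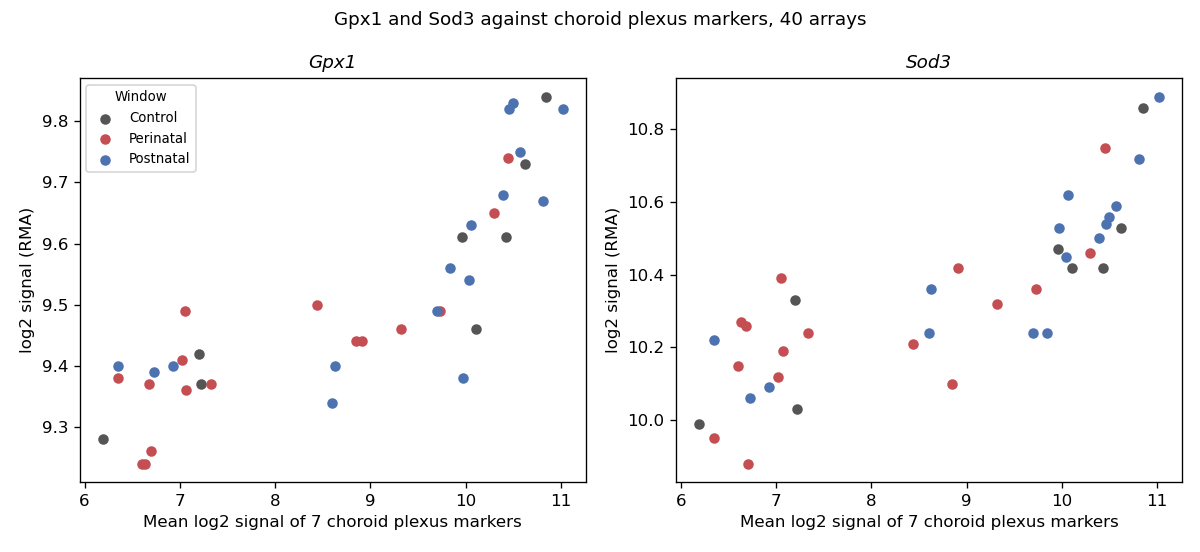
Log2 signal of Gpx1 (left) and Sod3 (right) against the mean log2 signal of 7 choroid plexus markers on the 40 arrays; grey marks controls, red perinatal and blue postnatal exposure. The marker mean leaves a gap between 7.33 and 8.44, and both genes are highest at its upper end.

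The genes of the list varied together only in part. Over deviations from the group means on all 40 arrays, 27 of 561 pairs of genes had r over 0.5 and 5 had r under -0.5, with a median of 0.126. Besides Gpx1 with Sod3, the closest pairs were Mgst1 with Nfe2l2 (0.757), Prdx2 with Prdx5 (0.72) and Gclm with Txn1 (0.717). All pairs share the same arrays and normalisation.

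Other redox genes that are not on the list gave no call between windows or against all controls. Of 72 genes listed for haem breakdown, further transferases and peroxidases, thiol repair and NADPH supply, 63 were measured. Against all controls limma called 0 of 63 (0.38% of all probe sets) and 6 had an unadjusted p under 0.05 (7.66% of all probe sets), among them Slc1a1, a neuronal glutamate and cysteine transporter (-0.14, SE 0.04, adjusted p = 0.0929). Hmox1, haem oxygenase, a common target of NRF2, differed by 0.03 (95% interval -0.07 to 0.14). Between windows 0 of 63 were called (0.065% of all probe sets) and 7 had an unadjusted p under 0.05, where 12.6% of all probe sets passed. The only one called in any contrast was Txnip, the thioredoxin-binding inhibitor of thioredoxin. It fell by 0.73 on the log2 scale in males exposed perinatally to 750 ppm against male controls (limma's adjusted p = 0.0353). That call was lost in 12 of 17 alternatives (adjusted p up to 0.603). Among them were the fit without the 3 flattened arrays, 1 of them in this group (-0.58, adjusted p = 0.289), and those without any of 7 of the 8 single arrays compared (adjusted p up to 0.302). Txnip also differed from that group after perinatal 250 ppm (750 minus 250 ppm, -0.91, adjusted p = 0.00543, and -0.83 with adjusted p = 0.325 without the flattened arrays) and after postnatal 750 ppm (postnatal minus perinatal, 0.98, adjusted p = 0.00122, and 0.83 with adjusted p = 0.0267). These comparisons share the arrays of 1 group, which alone made up the highest title range, so range and exposure cannot be told apart. In that group Txn1 differed from controls by -0.04 and Txnrd1 by -0.01. Slc1a1 and Hmox1 were named after their values were seen.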

How the data were processed

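Hippocampal RNA samples of rats were measured on 40 Affymetrix rat gene arrays. The deposited values are log2 signals that the authors made with RMA, which corrects background, equalises array distributions and summarises probes, and Partek is also named (both per the submitters' processing notes, versions not given). They were used as deposited. RMA compresses differences of dim probe sets, and sequence depth does not apply, so the number of arrays limits the precision.

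Arrays were grouped by their labels. All 29214 probe sets entered 1 linear model of 10 group means in R 4.3.3 with limma 3.58.1 (array weights through statmod 1.5.0), with a variance trend. Two-sided p-values received the Benjamini-Hochberg adjustment over all probe sets of a contrast, and calls were made under 0.05. The script was tested on simulated data. Array values were given in full for genes called, for the 3 of smallest p against all controls and for the 1 of smallest p in each exposure. The 35 genes and all other lists were chosen with earlier results of these data known. Alternatives were a further quantile normalization, a filter on dim probe sets, no trend, array weights, mean probe sets, fits of the compared groups only, subsets of arrays and, added after seeing the data, the choroid plexus marker level as a covariate. Start-site windows came from RefSeq (GRCr8) and figures from matplotlib.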

Additional observations from a re-analysis of the deposited data

Results flagged for a closer look

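In 21 of 340 sets of 4 arrays (6.18%), 1 array lay far from the other 3 of its group for a gene of the list, where chance flags about 1 in 20 groups. Of these, 5 were on female postnatal 250 ppm replicate 3, the array with the highest choroid plexus marker level (11.02). In the reverse of the flattened arrays, bright probe sets also read brighter on it than on most arrays. The fitted slope on the marker level was 0.116 for Sod3. It was 0.012 for Prdx3, 0.00267 for Prdx2, 0.00238 for Prdx5 and -0.0139 for Gclc. The part of either property in these flags was not tested. This array was the highest of its group for Sod3 (10.89, others 10.22 to 10.24), Prdx3 (9.75, others 9.50 to 9.54), Prdx2 (10.81, others 10.65 to 10.67), Prdx5 (9.38, others 9.27 to 9.28) and Gclc (9.49, others 9.45 to 9.46). Female control replicate 1, the array with the lowest marker level (6.19), was the lowest of its group for Sod3 (9.99, others 10.42 to 10.47).

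Among males, Sod3 was low on postnatal 750 ppm replicate 3 (10.06, others 10.54 to 10.62), and Gpx4 was high on postnatal 250 ppm replicate 2 (9.08, others 8.82 to 8.86). On perinatal 750 ppm arrays, Slc7a11 was high on replicate 2 (11.26, others 10.92 to 10.95) and Gpx7 on replicate 3 (7.91, others 7.83 to 7.84). Among male controls, Sod2 (10.79, others 10.65 to 10.67) and Gstm1 (11.99, others 11.84 to 11.85) were high on replicate 4, an array that went against its sex label. Prdx2 was high on replicate 3 (10.75, others 10.64) and Prdx4 low on replicate 2 (6.28, others 6.46 to 6.48).

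Among perinatal females, Gpx1 was high on 250 ppm replicate 3 (9.49, others 9.24 to 9.26) and Gpx7 on replicate 2 (7.97, others 7.85). At 750 ppm, Gsta4 was high on replicate 1 (8.86, others 8.36 to 8.43) and Mgst1 on replicate 2 (8.59, others 8.29 to 8.33). Among females exposed postnatally to 750 ppm, Nqo1 was high on replicate 1 (7.68, others 7.54 to 7.55), Nfe2l2 low on replicate 3 (8.53, others 8.67 to 8.68) and Mafg low on replicate 2 (8.43, others 8.56 to 8.59).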

How the results depend on the processing

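Of 17 counts of called genes of the list, 14 were the same under every alternative run. The count between windows went from 1 to 0 with a further quantile normalization, without the 3 flattened arrays, within 1 title range and with the choroid plexus covariate, and was 0 to 1 when single arrays were left out. The Srxn1 difference between windows was then -0.12, -0.14, -0.17 and -0.12 in that order, and -0.15 to -0.13 without single arrays. The count against all controls went from 0 to 1 (Gsr, 0.12) without the dimmest 40% of probe sets and was 0 to 1 without single arrays, where the Gsr difference ran from 0.09 to 0.14. The count of the test over all 10 groups went from 0 to 1 without the variance trend and was 0 to 1 without single arrays. Srxn1 in males exposed postnatally to 250 ppm turned from 0.02 to -0.01 without male control replicate 2 (-0.01 to 0.05 over single omissions). The cause was not tested. Over all probe sets, calls against all controls went from 111 to 71 without the trend and to 38 without the 3 mismatched controls. Calls between windows went from 19 to 33 with array weights, 10 without flattened arrays, 5 within 1 title range and 3 with the covariate, and those over all groups from 191 to 384 with weights and 127 without flattened arrays. Calls in single exposures ran from 0 to 112 over the alternatives, for dose from 12 to 57 and for sex from 12 to 154. No paired analysis was possible because the titles give sample numbers, not replicate numbers shared by the groups.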
